A study of Homo sapiens with 6 samples.

Results

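ADAM28, ADAMDEC1 and 6 further genes of the ADAM family of metalloproteinases (ADAM8, ADAM9, ADAM10, ADAM15, ADAM17 and ADAM19) were followed in 6 messenger RNA libraries of human acute myeloid leukemia cell lines. The 8 genes were taken by symbol from a table of 34114 genes, and ADAM28 and ADAMDEC1 were singled out because both were higher after NCAM1 knockdown in earlier work on these libraries. Knockdown cells of the established lines MOLM-14, NOMO-1 and SKM-1 had been transfected with a short hairpin RNA (shRNA) against NCAM1, the adhesion protein also called CD56. Control cells of the same lines had received a control shRNA. All were sampled at 72 h, with 1 library per line and condition, so 3 knockdown and 3 control libraries. The labels name no hairpin sequence and do not say whether all 3 lines received the same hairpin. The deposited column of the SKM-1 knockdown library carries an added letter after the hairpin name that the MOLM-14 and NOMO-1 columns lack, and no source used here explains it. No line had a second library of the same condition.

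ADAM proteins are membrane-anchored or secreted zinc metalloproteinases with a disintegrin domain. They are made with a propeptide that furin-like convertases remove, and many of them cut ("shed") the outer part of other surface proteins, which releases growth factors, cytokine receptors and adhesion molecules. ADAM28 is expressed in lymphocytes and in several tumours, binds the integrin alpha4beta1 and the selectin ligand PSGL-1, and cuts IGFBP3 and von Willebrand factor. ADAMDEC1 is a short, secreted relative that lacks the membrane-anchoring part and is known from macrophages and maturing dendritic cells. The genes of ADAM28 and ADAMDEC1 stand side by side on chromosome 8, on which ADAM9 also lies farther off.

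Values are normalized read counts, made by the authors by scaling the gene counts of each library with its own size factor. Whole reads could be recovered from them, and libraries held 41916991 to 47688779 gene-assigned reads. NCAM1 itself was 3.17-fold lower in knockdown MOLM-14, 3.73-fold lower in knockdown NOMO-1 and 124-fold lower in knockdown SKM-1 than in the matching control. The SKM-1 libraries stood apart from each other. Of genes with at least 100 normalized counts in one of a line's libraries, 28.8% differed at least 2-fold in SKM-1, 7.71% in NOMO-1 and 2.16% in MOLM-14, and MPO (myeloperoxidase, a granule enzyme) was at 6166 in knockdown and 728824 in control SKM-1 cells. The mean ratios of the members are therefore given with and without SKM-1, as are those of other genes where leaving it out turned the direction or moved the value by over 1.5 times. CD33 and SPI1, which mark myeloid cells, were at 1764 or more and 4791 or more in every library. Of the others on the same marker list, PTPRC was at 14053 or more, LYZ at 2455 to 14103 and CEBPA at only 19.8 to 241.

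ADAM28 (ENSG00000042980) was higher in the knockdown library of all 3 lines. It had 355, 2388 and 2599 normalized counts in MOLM-14, NOMO-1 and SKM-1 knockdown cells, against 142, 296 and 280.4 in control cells of the same lines. The lowest knockdown library was above the highest control library, so the groups did not overlap. The ratio of knockdown to control was 2.51 in MOLM-14 (95% interval 2.04 to 3.10), 8.08 in NOMO-1 (7.18 to 9.11) and 9.27 in SKM-1 (8.19 to 10.5). These exact conditional intervals cover counting error only. The mean log2 ratio, on the log2(normalized count + 1) scale used for all log2 values here, was 2.51 ± 1.04 (SD, n = 3 lines) and 2.16 without SKM-1. Because ADAM28 was chosen on this contrast, the values describe it and no test is given.

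ADAMDEC1 (ENSG00000134028) was also higher in each knockdown library, from much lower control levels. It had 92.9, 278 and 344 normalized counts in MOLM-14, NOMO-1 and SKM-1 knockdown cells, against 33.5, 5.67 and 15.2 in the controls. The groups again did not overlap. Among the controls MOLM-14 was highest and NOMO-1 lowest, while among the knockdown libraries MOLM-14 was the lowest. The ratio was 2.78 in MOLM-14 (1.82 to 4.35), 49.1 in NOMO-1 (22.3 to 135) and 22.6 in SKM-1 (13.5 to 40.8). The wide NOMO-1 interval follows from the depth of its control value, which rests on 6 reads against 305 in the knockdown library. The mean log2 ratio was 3.75 ± 2.05 (SD, n = 3 lines) and 3.42 without SKM-1. The control libraries alone averaged 18.1 ± 14.1 normalized counts (SD, n = 3), so ADAMDEC1 passed the filter used here, a mean of 10 or more, in either group.

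Ranked by mean log2 ratio among the 19575 genes that passed this filter, ADAMDEC1 stood first and ADAM28 was at position 39. ADAMDEC1 also had the highest log2 ratio of all tested genes in NOMO-1, and stood at position 305 in MOLM-14 and 243 in SKM-1. ADAM28 was at position 361, 33 and 549 in MOLM-14, NOMO-1 and SKM-1. Both were among the 44 genes, 0.225% of those tested, that were at least 2-fold higher in all 3 lines. Without SKM-1, 94 genes (0.48%) were at least 2-fold higher in both remaining lines. A knockdown group lying wholly above the control group was seen for 436 genes (2.23%). The choice of the genes used this contrast, so nothing is read from these positions.

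**Figure D1:**
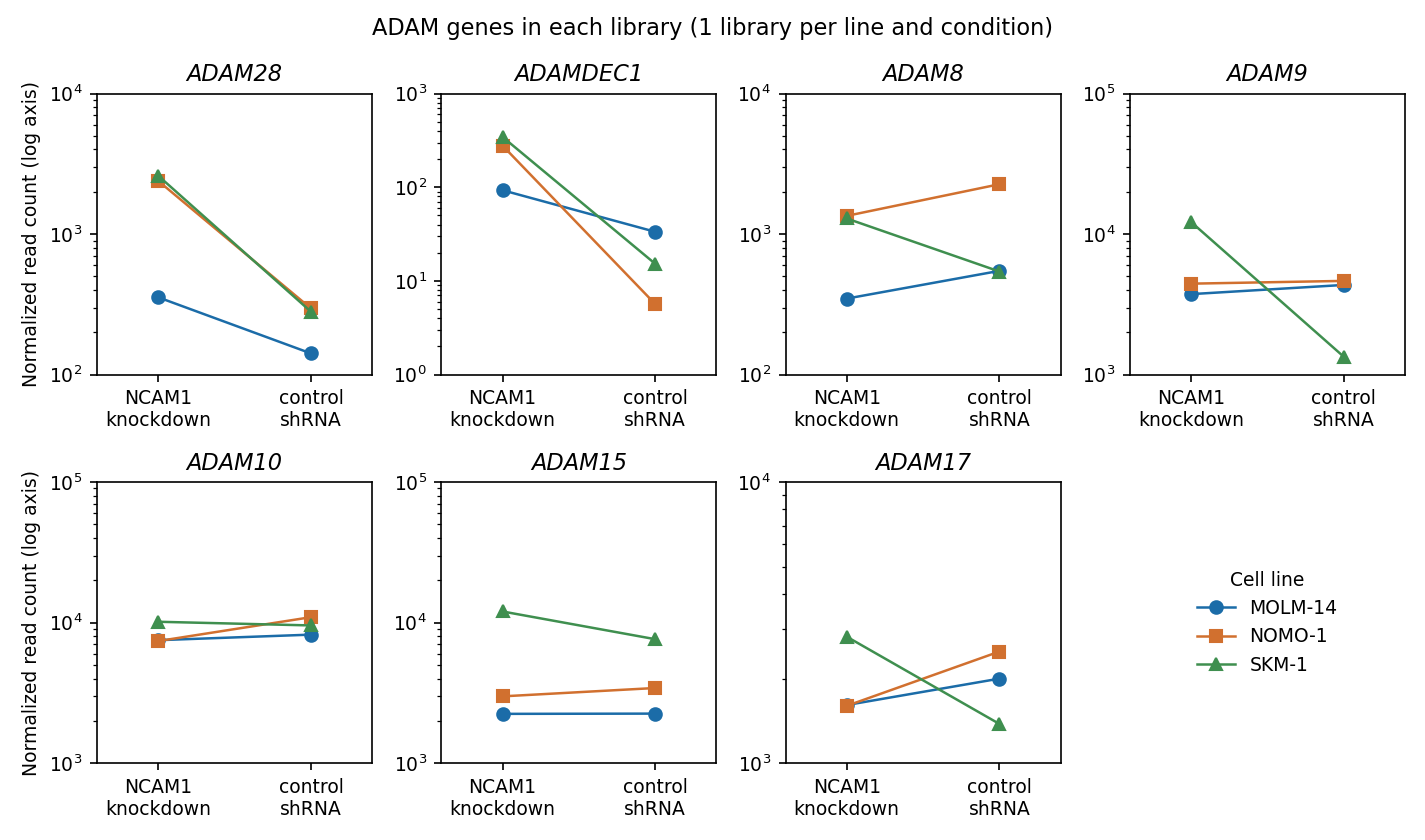
Normalized read counts (log axes, with a different range in each panel) of the 7 measured ADAM genes, with the NCAM1 knockdown library left and the control shRNA library right, joined by a line for each cell line. Each point is 1 library. ADAM28 and ADAMDEC1 fall from left to right in all 3 lines, whereas ADAM8, ADAM9 and ADAM17 do so in SKM-1 and lie lower on the left than on the right in MOLM-14 and NOMO-1.

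The remaining members did not share this pattern. In MOLM-14 and NOMO-1 all 5 other measured members (ADAM8, ADAM9, ADAM10, ADAM15 and ADAM17) had ratios below 1, and in SKM-1 all 5 had ratios above 1. Such a pattern was met by 13.4% of tested genes. At least 2-fold higher in the knockdown library were 2 of 7 measured members in MOLM-14 (3.56% of all tested genes), 2 of 7 in NOMO-1 (4.06%) and 5 of 7 in SKM-1 (15.7%). The first 2 counts are ADAM28 and ADAMDEC1 alone, and SKM-1 added ADAM8, ADAM9 and ADAM17. No measured member was at least 2-fold lower in any line, against 4.03%, 7.42% and 16.5% of tested genes in MOLM-14, NOMO-1 and SKM-1.

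The mean log2 ratio of ADAM28 and ADAMDEC1 exceeded the median of the 5 others by 4.76 in NOMO-1, 2.78 in SKM-1 and 1.60 in MOLM-14. The difference averaged 3.05 ± 1.60 (SD, n = 3 lines), and 3.18 without SKM-1. It was widest in NOMO-1, where the others were lowest, and narrowest in MOLM-14, where ADAM28 and ADAMDEC1 had their smallest ratios. The NOMO-1 value leans on an ADAMDEC1 control of 6 reads. ADAM28 and ADAMDEC1 were singled out on this contrast, so the difference follows from the choice and only describes them.

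ADAM9 cuts membrane-bound growth factors such as HB-EGF and differed most between lines among the 5 members other than ADAM28 and ADAMDEC1. It was at 3739, 4439 and 12211 in MOLM-14, NOMO-1 and SKM-1 knockdown cells, against 4347, 4645 and 1343 in controls. The ratios were 0.860 (0.822 to 0.900), 0.956 (0.918 to 0.994) and 9.09 (8.59 to 9.63). The SKM-1 knockdown library was the highest of the 6 and the SKM-1 control the lowest, with the 4 other libraries close together. The mean log2 ratio of 0.97 ± 1.92 (SD, n = 3 lines) was -0.14 without SKM-1. SKM-1 thus decided its direction.

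ADAM8, found on granulocytes and monocytes and able to shed PSGL-1, was at 348, 1347 and 1291 in MOLM-14, NOMO-1 and SKM-1 knockdown cells, against 548, 2263 and 542 in controls. Its ratios were 0.635 (0.551 to 0.731), 0.595 (0.558 to 0.636) and 2.38 (2.16 to 2.64). ADAM17, the TNF-converting enzyme, was at 1609.7, 1599 and 2817 in knockdown cells, against 1998, 2495 and 1379 in controls. Its ratios were 0.806 (0.752 to 0.863), 0.641 (0.603 to 0.681) and 2.04 (1.92 to 2.18). For both genes the knockdown library was the lower one in MOLM-14 and NOMO-1 and the higher one in SKM-1, and the groups overlapped. Their mean log2 ratios were -0.050 ± 1.13 and 0.026 ± 0.89 (SD, n = 3 lines), and -0.70 and -0.48 without SKM-1. ADAM17 shares 12.3% of its exon bases with IAH1 on the opposite strand in GENCODE 29, and IAH1 was at 508, 24.6 and 1856 in knockdown and 543, 39.7 and 1239 in control cells of the same lines. No source used here says whether counting used the strand, and reads from the shared stretch cannot be told apart.

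The 250 bases before the start of ADAM8 and ADAM17 are shown because both genes were at least 2-fold higher in knockdown SKM-1 cells and lower in the other knockdown libraries. They were chosen after these values were seen, and the stretches come from the RefSeq promoter table (GRCh38.p14), which matched 5 of the 8 members. They lie at chr10:133276869-133277118 and chr2:9555831-9556080, both on the minus strand. Capitals mark matches on either strand of GGGCGG (the GC box), CCAAT (the CCAAT box), GAGGAA (a purine-rich core that ETS factors such as PU.1 can bind) and TATAAA (the TATA box). No 2 matches overlap here.
ADAM8: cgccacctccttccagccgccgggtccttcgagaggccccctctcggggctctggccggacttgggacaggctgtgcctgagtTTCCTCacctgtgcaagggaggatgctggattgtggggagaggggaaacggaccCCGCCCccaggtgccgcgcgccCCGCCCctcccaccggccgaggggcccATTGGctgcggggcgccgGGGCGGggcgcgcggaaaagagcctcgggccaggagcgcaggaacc
ADAM17: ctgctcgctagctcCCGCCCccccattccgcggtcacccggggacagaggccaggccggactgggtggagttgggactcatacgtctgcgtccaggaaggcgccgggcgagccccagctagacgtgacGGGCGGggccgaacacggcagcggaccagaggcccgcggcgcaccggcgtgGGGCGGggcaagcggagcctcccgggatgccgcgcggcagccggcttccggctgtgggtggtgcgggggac
ADAM8 had 3 matches of GGGCGG, 1 of CCAAT and 1 of GAGGAA, and ADAM17 had 3 of GGGCGG and none of the other motifs. GGGCGG was found in 42.6% of 35116 promoter stretches of this length, CCAAT in 32.0%, GAGGAA in 23.6% and TATAAA in 10.7%. The GC content was 73.6% for ADAM8 and 75.6% for ADAM17, against a median of 58.0% over all entries. These are descriptions of the letters, not of binding.

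ADAM10, the main alpha-secretase and the protease that cuts Notch receptors, varied least in its log2 ratio among the measured members. It was at 7495, 7389.7 and 10134 in MOLM-14, NOMO-1 and SKM-1 knockdown cells, against 8209, 10928 and 9543 in controls. The ratios were 0.913, 0.676 and 1.06, and the mean log2 ratio was -0.20 ± 0.33 (SD, n = 3 lines), and -0.35 without SKM-1. ADAM15, whose human disintegrin domain carries an RGD integrin-binding motif, was at 2242, 2987 and 11996 in knockdown cells, against 2252, 3425 and 7618 in controls. Its ratio in MOLM-14 was 0.996 with an interval of 0.937 to 1.06, so no difference was detectable at this depth. It was 0.872 (0.832 to 0.915) in NOMO-1 and 1.57 (1.53 to 1.62) in SKM-1. The mean log2 ratio of ADAM15 was 0.15 ± 0.45, and -0.10 without SKM-1. ADAM19, also called meltrin beta, had at most 1 read in any library and 3 reads in all, too few for a ratio or a test.

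**Figure D2:**
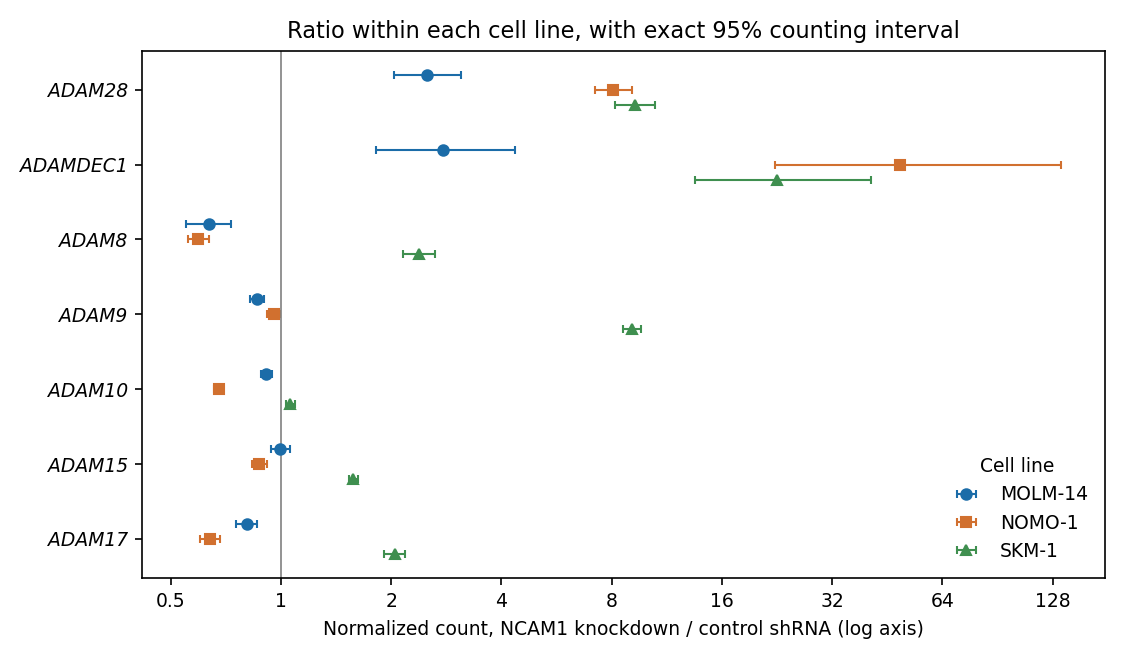
Ratio of normalized counts in NCAM1 knockdown over control shRNA within each cell line (log axis), with bars for the exact 95% interval of counting error. The grey line marks a ratio of 1. All 3 points of ADAM28 and ADAMDEC1 lie right of it, and for the 5 other genes the SKM-1 point lies right of the MOLM-14 and NOMO-1 points.

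Levels of different genes were compared per kb of exon, using the union of exons in GENCODE 29. ADAM15 (mean 773 normalized counts per kb over 6 libraries), ADAM9 (741) and ADAM10 (554) were the highest. ADAM8 (221), ADAM17 (184), ADAM28 (108) and ADAMDEC1 (52.6) followed, and ADAM19 (0.060) came last. The ranges of neighbours in this order overlapped at every step down to ADAMDEC1, and the step from ADAMDEC1 to ADAM19 was free of overlap. Within libraries, ADAM10 was above ADAM8 in 6 of 6 and ADAM28 above ADAMDEC1 in 5 of 6. ADAM15 was above ADAM9 in 2 of 6, ADAM9 above ADAM10 in 4, ADAM8 above ADAM17 in 3 and ADAM17 above ADAM28 in 4, so these 4 steps are not resolved. ADAM10 (457 or more) lay wholly above ADAM17 (262 or less).

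The place of ADAM28 in the family differed between conditions in NOMO-1 and SKM-1. Per kb of exon it was at 38.0, 255 and 278 in MOLM-14, NOMO-1 and SKM-1 knockdown cells, against 15.1, 31.6 and 30.0 in controls. ADAM17 was at 150, 149 and 262 per kb in knockdown and 186, 232 and 128 in control cells. ADAM28 thus lay above ADAM17 in the NOMO-1 and SKM-1 knockdown libraries and below it in all 3 controls. ADAMDEC1 was at 38.1, 114 and 141 per kb in knockdown and 13.7, 2.32 and 6.25 in control cells, level with ADAM28 in knockdown MOLM-14 (38.1 and 38.0).

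**Figure D3:**
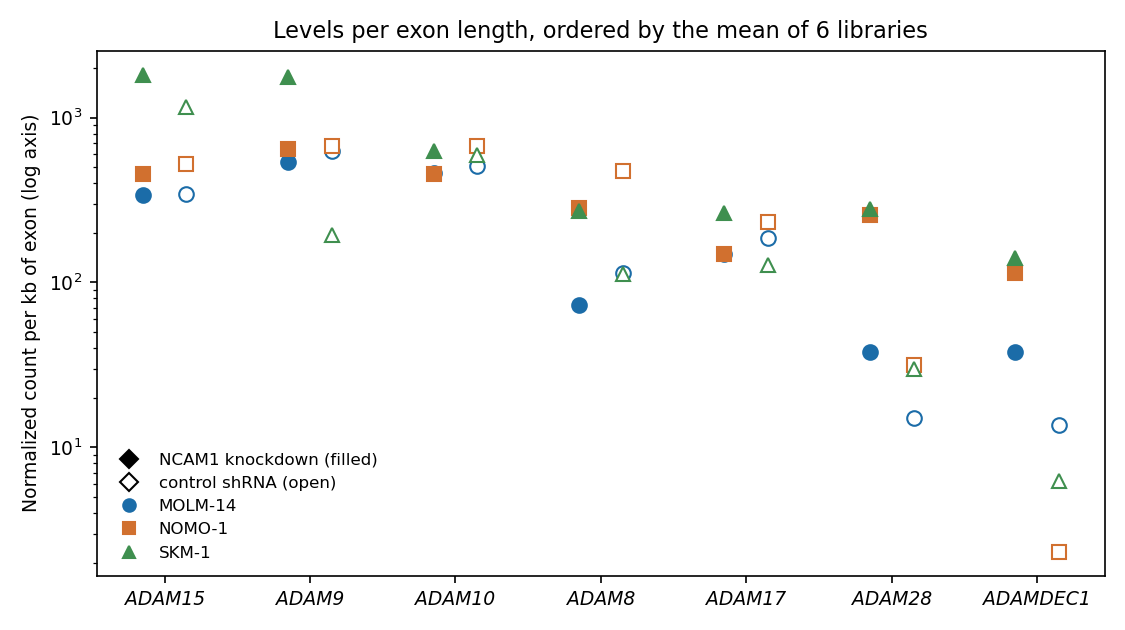
Normalized counts per kb of exon (log axis) for the 7 measured ADAM genes, ordered by the mean of 6 libraries. Filled symbols at the left of each gene are NCAM1 knockdown libraries, open symbols at the right are control shRNA libraries, and shape and colour give the cell line. ADAM28 and ADAMDEC1 are the genes whose filled symbols all lie above their open ones.

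Differences between the cell lines were not used to choose the genes and could be tested. With 2 libraries per line and the knockdown as a term (limma, Benjamini-Hochberg adjusted over 19575 genes), a gene was called at an adjusted p under 0.05 and at least a 2-fold difference. The 2 libraries of a line are a knockdown and a control, not repeats. The spread behind these tests is therefore how unevenly the knockdown ratio varied between lines. Of 7 measured members 0 were called between MOLM-14 and NOMO-1 (13.3% of all tested genes), 1 between SKM-1 and MOLM-14 (15.9%) and 1 between SKM-1 and NOMO-1 (13.7%). A call for 1 of 7 members is near the background, so the counts set the family apart in neither contrast.

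ADAM15 was the member called in both. It was 4.25-fold higher in SKM-1 than in MOLM-14 (log2 difference 2.09, SE 0.277, limma adjusted p = 0.0135) and 2.99-fold higher in SKM-1 than in NOMO-1 (1.58, SE 0.277, limma adjusted p = 0.0279). Both SKM-1 libraries were above all 4 others. The call against MOLM-14 was lost when either MOLM-14 library (adjusted p 0.073 and 0.106) or either NOMO-1 library (0.0688 and 0.0695) was left out, and the call against NOMO-1 when a MOLM-14 library (0.0607 and 0.0611) or a NOMO-1 library (0.183 and 0.271) was left out or low genes were kept (0.0515). ADAM15 shares 4.65% of its exon bases with DCST1 on the same strand, and DCST1 was at 160 and 116 in knockdown and control SKM-1 cells and at most 26.4 in the other libraries.

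ADAM28 did not pass between lines. Its log2 difference was -1.90 for MOLM-14 minus NOMO-1 (limma adjusted p = 0.0873), 1.92 for SKM-1 minus MOLM-14 (0.0757) and 0.023 for SKM-1 minus NOMO-1 (0.982), each with an SE of 0.533. The first passed at 0.0469 without the SKM-1 control library and at 0.0482 without the SKM-1 knockdown library. The second passed at 0.0486 without the MOLM-14 control library and at 0.0489 without the SKM-1 control library. Neither passed without the MOLM-14 knockdown library, where the differences were -1.01 (0.461) and 1.03 (0.416), or without either NOMO-1 library (0.361 and 0.475 for the first, 0.194 and 0.201 for the second). In DESeq2 on recovered reads both passed, at an adjusted p of 0.0132 and 0.00994. ADAMDEC1 had differences of 0.40, 0.40 and 0.80 in the same 3 contrasts, each with an SE of 1.01, and did not pass (limma adjusted p 0.833, 0.817 and 0.648). With 1 library left out they ranged over -1.33 to 2.12, -1.33 to 2.12 and -0.43 to 2.03, so no direction held. ADAM8 had a log2 difference of -2.00 for MOLM-14 minus NOMO-1 and did not pass (limma adjusted p = 0.0880). It passed with the SKM-1 control (0.00457) or knockdown (0.00485) library left out, and in DESeq2 (0.00841). Without the SKM-1 control library ADAM8 was also higher in SKM-1 than in MOLM-14 (1.91), and without the SKM-1 knockdown library lower in SKM-1 than in NOMO-1 (-2.04). ADAM9, ADAM10 and ADAM17 had adjusted p-values of 0.383 or more in all 3 contrasts. ADAM9 passed in both SKM-1 contrasts when 1 SKM-1 library was left out, with SKM-1 higher without its control library (1.67 against MOLM-14 and 1.50 against NOMO-1) and lower without its knockdown library (-1.66 and -1.83).

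The neighbourhood of ADAM28 and ADAMDEC1 was compared in gene order, within 5 protein-coding genes to each side. Of 9 such genes considered here, 5 passed the filter (ENTPD4, SLC25A37, STC1, DOCK5 and GNRH1). None of the 5 was higher in all 3 lines, against 14.6% of tested genes. ENTPD4 (a nucleotide-hydrolysing enzyme), SLC25A37 (mitoferrin, a mitochondrial iron importer), DOCK5 (an activator of Rac) and GNRH1 (a releasing hormone) were lower in the knockdown library of each line, as were 15.9% of tested genes. For GNRH1 the intervals reached 1 in MOLM-14 (0.936, 0.765 to 1.15) and SKM-1 (0.933, 0.743 to 1.17), so no difference was detectable there. The median log2 ratio of the 5 was -0.34, against -0.0072 for all tested genes, and none had an unadjusted limma p under 0.05. STC1, the nearest neighbour that passed the filter, was at 41.8, 42.0 and 0.918 in MOLM-14, NOMO-1 and SKM-1 knockdown cells, against 25.6, 570 and 1.02 in controls. ADAM7, the ADAM gene next to ADAMDEC1, had at most 2.75 normalized counts in a knockdown library and at most 0.945 in a control. An antisense transcript annotated across ADAM28 and ADAMDEC1, AC120193.1, shares no exon bases with either and had 1.04, 8.21 and 4.59 normalized counts in MOLM-14, NOMO-1 and SKM-1 knockdown cells, against 0, 5.67 and 0 in controls. The neighbours NEFM and NEFL did not pass the filter and had no reads in MOLM-14. NEFM had 38 reads in knockdown and 2 in control SKM-1 cells, a ratio of 17.2 (4.44 to 147). In NOMO-1 it had 5 and 14 reads (0.345, 0.0972 to 1.01). NEFL had 11 and 1 reads in NOMO-1 (10.6, 1.54 to 457) and none in SKM-1.

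**Figure D4:**
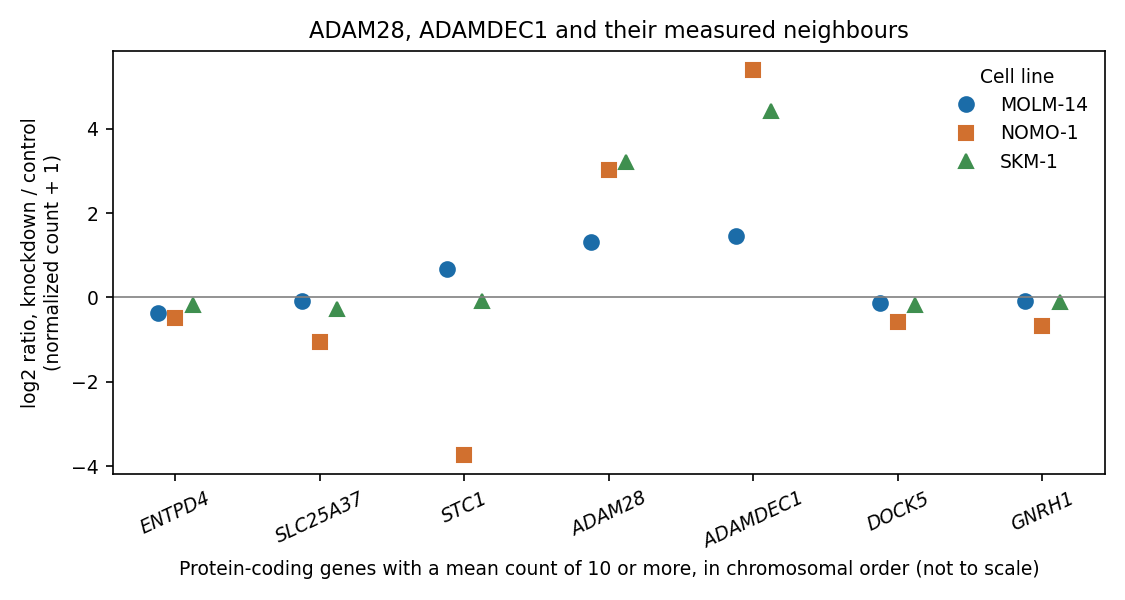
Log2 ratio of NCAM1 knockdown over control shRNA, on normalized counts plus 1, for ADAM28, ADAMDEC1 and 5 neighbouring protein-coding genes with a mean of 10 or more, in chromosomal order (spacing not to scale). Each symbol is 1 cell line. ADAM28 and ADAMDEC1 lie above 0 in all 3 lines, and none of the 5 neighbours shown does.

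Markers of other cell types in which these proteases are known were read beside them. The summed level of the 10 macrophage markers found was 1499, 820 and 4058 in MOLM-14, NOMO-1 and SKM-1 knockdown cells, against 1867, 1089 and 4077 in controls, lower in the knockdown library of each line. Of the defining ones, C1QC was at 0.945 or less and CD68 at 10.4 or less in all 6 libraries. MSR1, a scavenger receptor of macrophages, was higher in each knockdown library, at 37.6, 153 and 38.6 against 34.6, 46.3 and 1.02. The 5 B cell markers considered summed to 1091, 2779.8 and 66.1 in knockdown cells and 1269, 798 and 292 in controls. The difference in NOMO-1 lay mainly in MS4A1 (CD20), at 1988 in knockdown and 144 in control NOMO-1 cells. The 7 T and NK cell markers summed to 1036, 4163 and 772 in knockdown cells and 1290, 5396 and 1952 in controls. The 6 epithelial and stromal markers summed to 770, 3634 and 1321 in knockdown cells and 444, 2688 and 613 in controls. The part of any of these in the ADAM28 and ADAMDEC1 values was not tested. In such bulk libraries, fewer cells of a type and less RNA per cell cannot be told apart.

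Other genes of the pathway were described from fixed lists. In the knockdown comparison limma called 0 of 19575 genes, with 877 (4.48%) at an unadjusted p under 0.05, of which 312 (1.59%) were higher and 565 (2.89%) lower. edgeR also called 0 (863 unadjusted) and DESeq2 called 43 (0.22%). The limma adjusted p of every gene named from these lists was 0.779 or more, so they are given by their values. Of 13 ADAM genes outside the members, 5 passed the filter. None was higher or lower in all 3 lines. ADAM22, a catalytically inactive receptor of the nervous system, had the highest level of the 5 per kb of exon, and stood at 1381, 2284 and 847 in MOLM-14, NOMO-1 and SKM-1 knockdown cells, against 1540.1, 2124 and 2067 normalized counts in controls. ADAM23, another inactive member, had no reads in either MOLM-14 library and was at 51.1 and 161 in knockdown NOMO-1 and SKM-1 cells, against 25.5 and 27.4 in controls. ADAM11, ADAM12 and ADAM32 had mean log2 ratios of -0.78 ± 1.81, 0.55 ± 1.17 and -0.51 ± 2.62 (SD, n = 3 lines), and of 0.25, 1.17 and 0.99 without SKM-1, which turned the direction of ADAM11 and ADAM32.

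The upstream regulators of ADAM activity did not move one way. Of 4 convertases that remove ADAM propeptides, PCSK7 alone was higher in all 3 lines (mean log2 ratio 0.45 ± 0.57), and FURIN was at -0.27 ± 0.63 (SD, n = 3 lines). Without SKM-1 they were at 0.13 and -0.48. The PCSK7 ratio in MOLM-14 was 1.01 (0.938 to 1.08), so no difference was detectable there. Of 7 tested inhibitors 3 were lower in all 3 lines (15.9% of tested genes) and 1 higher (14.6%). TIMP1, a secreted inhibitor of metalloproteinases, was at 2008, 2263 and 4813 in MOLM-14, NOMO-1 and SKM-1 knockdown cells, against 2192, 2967 and 7839 in controls. TIMP2 was at -0.33 ± 0.30 and SPOCK2 at 0.53 ± 0.35 on the same mean log2 scale. The interval of TIMP2 reached 1 in SKM-1 (0.977, 0.920 to 1.04), as did that of the remaining lower gene (0.986, 0.930 to 1.05). That of SPOCK2, the higher one, reached 1 in NOMO-1 (1.24, 0.953 to 1.61) and SKM-1 (1.29, 0.620 to 2.76). No difference was detectable in those lines. TIMP3, which inhibits ADAM10 and ADAM17, was near 0 outside NOMO-1, where it had 796 normalized counts in knockdown and 2508 in control cells.

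Among the partners of single members, FRMD8, which stabilises ADAM17 at the surface, was higher in the 3 lines (0.52 ± 0.55, and 0.20 without SKM-1). The inactive rhomboids RHBDF1 and RHBDF2, which carry ADAM17 to the surface, were at -0.97 ± 1.10 and -0.14 ± 0.58 (mean log2 ratio ± SD, n = 3 lines), and at -1.52 and -0.45 without SKM-1. In SKM-1 RHBDF1 had 17 reads in the knockdown and 14 in the control library, a ratio of 1.10 (0.509 to 2.40), so no difference was detectable there. Of 6 tetraspanins that bind ADAM10, TSPAN15 (1.18 ± 0.17) and TSPAN17 (0.78 ± 0.42) were higher in all 3 lines and TSPAN33 (-2.76 ± 2.22) lower. Of all tested genes, 14.6% were higher and 15.9% lower in all 3 lines. The TSPAN33 ratio in NOMO-1 was 0.850 (0.663 to 1.09), so no difference was detectable there. TSPAN15 was mainly counted in SKM-1, at 1609 in knockdown and 729 in control cells. It had 1 read in the knockdown and 0 in the control library of MOLM-14, which gives no fold, and 15 and 5 reads in those of NOMO-1, so its small SD rests on few reads. TSPAN5 was at -0.20 ± 0.61, and at -0.036 without SKM-1.

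Substrates were as mixed. Of 20 tested proteins shed from leukocytes, 3 were lower and 1 was higher in every line, against 15.9% and 14.6% of all tested genes. The intervals of the higher one reached 1 in MOLM-14 (1.06, 0.953 to 1.17) and SKM-1 (1.57, 0.799 to 3.18). The median log2 ratio of the 20 was -0.31 in MOLM-14, 0.64 in SKM-1 and -0.58 in NOMO-1, and -0.12 over the means of the 3 lines. APP was at 9651, 16064 and 16860.5 in MOLM-14, NOMO-1 and SKM-1 knockdown cells, against 11630.1, 20561 and 34619 in controls (mean log2 ratio -0.55 ± 0.42, unadjusted p = 0.048 in limma, and -0.31 without SKM-1). IL6R had a mean log2 ratio of -0.23 ± 0.14. FCER2 (CD23) was at 109 in knockdown and 597 in control MOLM-14 cells and at 10.9 or less in the other lines. Of 6 tested ligands and substrates of ADAM28, 1 was higher and 2 were lower in all 3 lines. VWF (von Willebrand factor) was at 7.31, 2.74 and 0 in knockdown cells, against 72.5, 35.9 and 3.05 in controls, with a mean log2 ratio of -2.82 ± 0.70 (unadjusted p = 0.00245 in limma). The SKM-1 values are at or under the floor of 3 reads and give no fold. SELPLG (PSGL-1) was at -0.62 ± 0.91, with nearly all of it in SKM-1 (888 in knockdown and 2817 in control cells), and ITGA4, the alpha4 integrin chain, at -0.56 ± 0.75. Without SKM-1 they were at -0.093 and -0.15. CTGF was at 768 in knockdown and 690.3 in control MOLM-14 cells and at 0.918 or less in the other libraries, so that its place among the higher genes rests on single reads.

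Enzymes that act after or beside the ADAMs gave the following counts. Of all tested genes, 14.6% were higher and 15.9% lower in all 3 lines. Of 6 gamma-secretase genes, which cut the stubs that shedding leaves, 3 were higher and none lower in all 3 lines. The intervals of these 3 reached 1 in a line each, so no difference was detectable there. They were PSEN2 in MOLM-14 (1.97, 0.886 to 4.68), APH1B in NOMO-1 (1.04, 0.990 to 1.10) and the remaining gene in SKM-1 (1.01, 0.981 to 1.04). PSEN2 was at 1.09 ± 0.50 (unadjusted p = 0.0161 in limma), whereas NCSTN and PSENEN were at -0.15 ± 0.34 and -0.16 ± 0.80 and APH1B at 0.13 ± 0.072 (mean log2 ratio ± SD, n = 3 lines). Without SKM-1 NCSTN was at -0.34 and PSENEN turned to 0.28. Of 13 ADAMTS genes, secreted relatives that act on the matrix, 2 were higher and 2 lower in all 3 lines. ADAMTS1 (0.84 ± 0.21) and ADAMTS5 (1.28 ± 0.98) were the higher ones, and ADAMTS2 (-2.54 ± 1.47) and ADAMTS14 (-1.38 ± 1.64) the lower ones. In NOMO-1 ADAMTS2 had 0 reads in the knockdown and 8 in the control library. In SKM-1 ADAMTS14 had 1 and 17. ADAMTS5 was at 0.81 and ADAMTS14 at -0.45 without SKM-1. Of 9 matrix metalloproteinases none was higher and 2 were lower in all 3 lines. MMP17 was 1 of these, and the other had 2 reads in each NOMO-1 library, which gives no fold there. MMP17 (-1.16 ± 1.08), MMP14 (-0.76 ± 0.72), MMP24 (-0.60 ± 0.62) and MMP25 (-0.26 ± 0.28) had the smallest p-values. Without SKM-1 these were at -0.59, -1.18, -0.94 and -0.42.

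**Figure D5:**
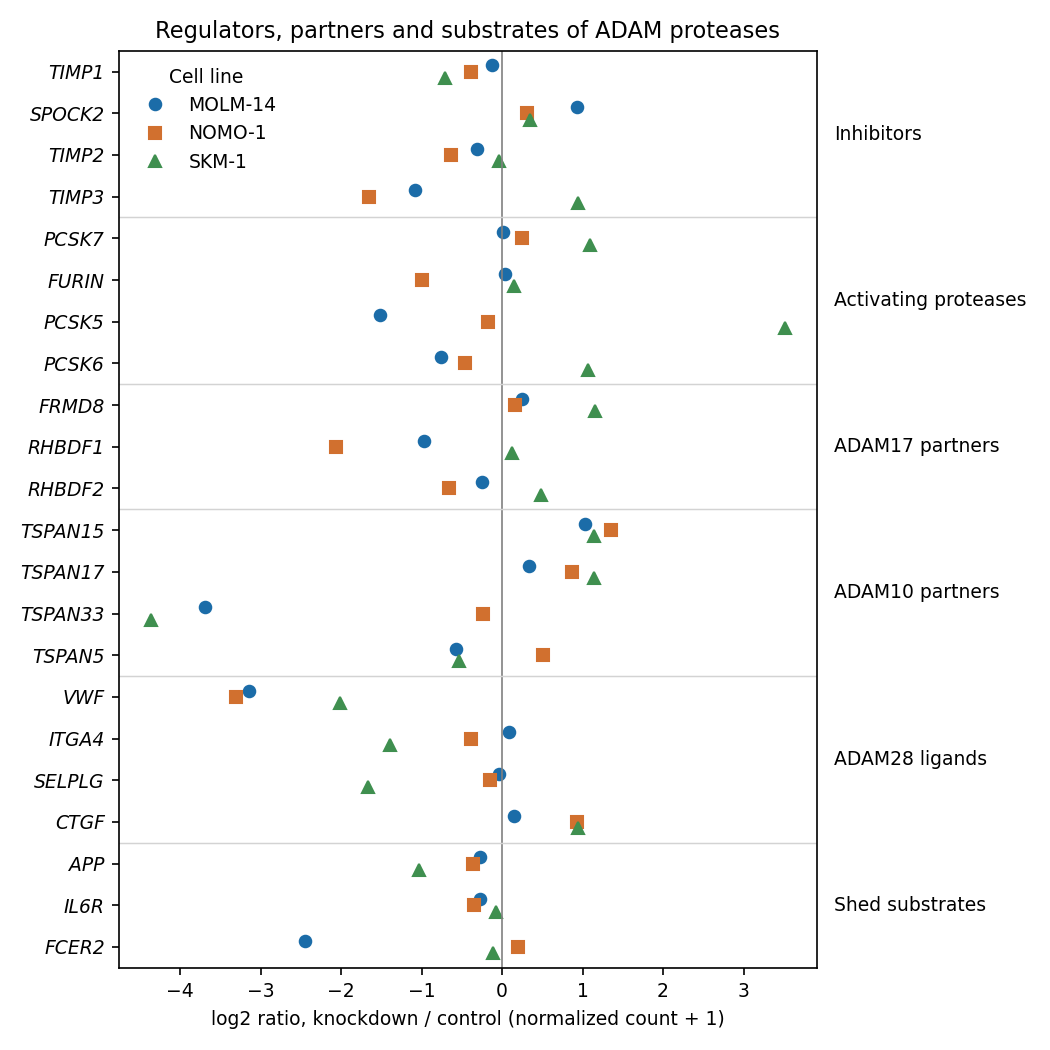
Log2 ratio of NCAM1 knockdown over control shRNA, on normalized counts plus 1, for up to 4 genes with the smallest limma p of the lists of inhibitors, activating convertases, partners, ADAM28 ligands and shed substrates. Each symbol is 1 cell line, and grey rules separate the lists. VWF lies left of 0 and TSPAN17 right of 0 in all 3 lines, while the MOLM-14 point of TSPAN15, the MOLM-14 and SKM-1 points of TIMP3 and the NOMO-1 and SKM-1 points of CTGF rest on at most 1 read per library, and the convertases PCSK5 and PCSK6 lie right of 0 in SKM-1 only.

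The genes most like ADAM28 over the 6 libraries, among 13781 protein-coding genes by Pearson r on the log2 values, were CNEP1R1 (0.977), C3orf38 (0.973), RPP14 (0.971), TMEM126B (0.970) and POLR2G (0.970). Those most like ADAMDEC1 were PPAT (0.991), ALG8 (0.978), DCAF4L1 (0.978), CSTF3 (0.973) and SSSCA1 (0.972). ADAM28 and ADAMDEC1 had an r of 0.81 with each other, which put ADAMDEC1 at position 539 for ADAM28 and ADAM28 at position 222 for ADAMDEC1. These values share the same 6 libraries and their scaling, and are descriptions.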

How the data were processed

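Gene expression was measured in 6 libraries (TruSeq RNA v2, paired reads of 100 bp), grouped by the labels. The deposited signal values are gene counts scaled by the authors with a size factor for each library. The deposited log2 values are the authors' own transformation, which the sources used here do not name. The submitters' processing notes list bcl2fastq 1.8.4, STAR, HTSeq 0.6.1p1, hg19 and DESeq2 1.12.4 with no settings. Exon lengths (GENCODE 29), gene order and promoters (RefSeq) are of GRCh38, so no coordinate was set against hg19 values.

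Dividing each column by its smallest step made 100% of values whole at a tolerance of 0.001. The recovered reads give the depth and the precision of single ratios (exact conditional 95% intervals, floor of 3 reads, counting error only). The 8 members and the gene lists were chosen with earlier results of these data known, so no member has a test in the knockdown contrast. Tests used limma 3.58.1 in R 4.3.3 (lmFit, eBayes with a trend, both directions) on log2(normalized count + 1), with a term for cell line and one for knockdown. This scale understates changes of low genes. Of 34114 genes, 19575 had a mean of 10 or more and were tested, with Benjamini-Hochberg adjustment over all of them. There were 2 residual and 2.81 prior degrees of freedom. No line had repeat libraries, so the residual holds only how unevenly the knockdown ratio varied between the lines. The p-values, also those of the cell line contrasts, are set against that spread and the prior, not against repeats of a line. Libraries pair by the line, and deviations from the group means correlated at 0.850, 0.863 and 0.710 within MOLM-14, NOMO-1 and SKM-1. Genes named from lists were up to 4 per list with the smallest limma p, and 3 genes of these lists are not reported here.

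In simulated data for 19575 genes, the knockdown comparison found 1 of 67 genes with a 2-fold change, 29 of 67 with a 4-fold change and 59 of 66 with an 8-fold change, beside 2 false calls. The MOLM-14 against NOMO-1 contrast found 0 of 67, 16 of 67 and 47 of 66, beside 8 false calls. Changed genes had a mean of 50 or more, and a knockdown change had the same fold in every line. In the line contrast all other genes had the same mean in every line. The real data are not so even, so these counts do not give the power in them. Alternatives tried were a pseudocount of 0.5 or 8, a filter of 50 or none, scaling by total counts, the authors' log2 values, recovered reads in edgeR 4.0.16 and in DESeq2 1.42.0, leaving out the block or the knockdown term, and leaving out libraries.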

Additional observations from a re-analysis of the deposited data

Results flagged for a closer look

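For 5 members the knockdown ratio lay on opposite sides of 1 in different lines, with counting intervals that did not reach 1. The difference between lines was not tested, since each line has 1 library per condition. ADAM9 had a ratio of 9.09 in SKM-1 and 0.860 in MOLM-14. ADAM8 had 2.38 in SKM-1 and 0.595 in NOMO-1, and ADAM17 had 2.04 in SKM-1 and 0.641 in NOMO-1. ADAM15 had 1.57 in SKM-1 and 0.872 in NOMO-1, and ADAM10 had 1.06 in SKM-1 and 0.676 in NOMO-1. All 5 turn on SKM-1, whose libraries also differed most in genes overall (28.8% at least 2-fold) and in NCAM1 (124-fold). The part of those library differences in the ADAM values was not tested.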

How the results depend on the processing

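The knockdown comparison called 0 genes in limma under every pseudocount, filter, scaling and left-out line, and in edgeR, but 43 in DESeq2. The pairing by line changed no call: with no replicate block limma called 0 genes, with 141 instead of 877 at an unadjusted p under 0.05. That count was 1405 with no filter, 223 without NOMO-1 and 1389 without SKM-1. The mean by which ADAM28 and ADAMDEC1 exceeded the other members ranged over 2.19 to 3.77 with 1 line left out and over 2.16 (the authors' transformed values) to 3.20 (DESeq2) otherwise. Both genes were singled out on this contrast, so these ranges are descriptions and give the difference no support. The 2 calls among members between cell lines were 1 with no filter and 5 in DESeq2, and ranged over 0 to 8 with 1 library left out. The whole-table calls with 1 library left out ranged over 0 to 4884 for MOLM-14 against NOMO-1, 636 to 5947 for SKM-1 against MOLM-14 and 0 to 5038 for SKM-1 against NOMO-1, where the lone library of a line is assumed to vary like the others. The cause of these shifts was not tested. Depth limits the control level of ADAMDEC1 in NOMO-1 (6 reads) and any value of ADAM19 (3 reads in all).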
